A study of Mus musculus with 157 samples.

Results

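The 76 genes described here encode proteins of the cytosolic ribosome. They are every protein-coding row, of 50686 gene rows, whose symbol is Rpl, Rps or Rplp with a number, or Rpsa, with pseudogenes left out; 46 belong to the large subunit and 30 to the small one. Cytosolic ribosomes are assembled from ribosomal RNA and these proteins, Rpl and Rplp products in the large subunit and Rps products and Rpsa in the small one, and their mRNAs are among the most abundant of a growing cell. Many of the mRNAs begin with a pyrimidine tract, the TOP motif, through which mTOR signalling controls their translation, and Myc is a known activator of the genes. In the thymus, double-negative progenitors (DN1 to DN4) pass through proliferative stages, whereas most double-positive (DP) cells are small and out of the cycle.

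Bulk RNA-seq had been made from mouse libraries in 2 runs, 81 in the earlier and 76 in the later, which were analysed separately. The labels give each group by tissue and by alleles of Cdc20, the activator of the anaphase-promoting complex, written +/D in controls and D/AAA in mutants, with RERT2, LCK or CD4 before the genotype; they do not expand these names, and the D allele is carried by controls and mutants alike. The series title calls the D/AAA mice aneuploid. Progenitors were sorted into lysis buffer, at least 5000 cells each. Tumours whose labels name no sorted population are called unsorted here, which the labels themselves do not state.

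The earlier run (81 libraries) held early thymic lymphomas of RERT2 D/AAA mice, 5 sorted as DP and 7 unsorted, RERT2 D/AAA thymus sorted as DN1 (9 libraries), DN2 (1), DN3 (5), DN4 (6) and DP (11), and RERT2 +/D thymus sorted as DN1 (6), DN2 (8), DN3 (8), DN4 (8) and DP (7). The later run (76 libraries) held lymphomas of RERT2 D/AAA (22), RERT2 D/AAA with p53(+/D) (10), RERT2 D/AAA with MYCChr6 (3), LCK D/AAA with MYCChr6 (14), CD4 D/AAA with MYCChr6 (2), LCK +/D with MYCChr6 (4) and p53(-/-) (1) mice, and whole non-tumoral thymus of RERT2 D/AAA (9), RERT2 D/AAA with MYCChr6 (3), RERT2 +/D with MYCChr6 (2) and RERT2 +/D (6) mice. The labels give neither ages nor whether libraries of a group came from separate animals, so the spread behind each p-value is that of the libraries and may be technical. In whole thymus and tumours, fewer cells of a type and less RNA per cell cannot be told apart.

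Library totals spanned 21199 to 11595463 counts in the earlier run and 1708619 to 8009572 counts in the later one. A DN1 D/AAA library, replicate 8, had the 21199 counts. Levels are CPM values with the library totals scaled by TMM. One row, CT010467.1, took between 30.1% and 56% of the counts of later libraries, against 0.223% to 2.68% of earlier ones. As a check of the DP label, 6 thymocyte genes (Cd3e, Cd4, Cd8a, Cd8b1, Lck and Rag1) summed to 12031 to 15972 CPM (median 13976) in DP +/D cells, against 2677 to 3486 CPM (median 3133) in DN4 +/D cells. Markers of other cells are given beside the results they move with, as B cell (Cd79a, Cd79b, Ms4a1 and Cd22), myeloid (Lyz2, Itgam, S100a8, S100a9 and Csf1r), red cell (Hba-a1, Hba-a2, Hbb-bs, Hbb-bt and Alas2) and NK and innate T genes (Nkg7, Ccl5, Klrb1c, Ncr1 and Zbtb16). Apart from Csf1r in DN3 +/D and S100a9 in DN3 D/AAA cells, each thymocyte, B cell, myeloid and red cell gene was detected in at least 1 library of every group compared. All 76 ribosomal protein genes passed the filter on low counts in all 20 comparisons.

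The first bases of the mRNA are where the TOP motif lies, so windows of 30 bases around the RefSeq start, 15 on each side, are shown for 10 members that recur in the results. Sequences are RefSeq, GRCm38.p6, whose start can differ from the gene start of the annotation used for positions. Capitals mark the run of at least 5 pyrimidines (C, then C or T) that begins nearest the start; Rpl22, Rpl37, Rpl41 and Rpl5 have none in the window.
Rpl15, chr14:18270972-18271001, minus strand: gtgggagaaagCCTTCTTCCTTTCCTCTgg
Rpl22, chr4:152325711-152325740, plus strand: ttcgccctgggaaaagcaatagctggccga
Rpl28, chr7:4792950-4792979, plus strand: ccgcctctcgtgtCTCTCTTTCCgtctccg
Rpl37, chr15:5116598-5116627, plus strand: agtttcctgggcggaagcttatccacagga
Rpl39, chrX:37085208-37085237, minus strand: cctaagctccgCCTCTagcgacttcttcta
Rpl41, chr10:128549154-128549183, minus strand: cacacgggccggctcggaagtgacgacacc
Rpl5, chr5:107900513-107900542, plus strand: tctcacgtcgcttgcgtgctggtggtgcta
Rps18, chr17:33955651-33955680, minus strand: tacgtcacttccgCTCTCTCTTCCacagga
Rps2, chr17:24720048-24720077, plus strand: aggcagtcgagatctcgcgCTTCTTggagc
Rps27, chr3:90213634-90213663, minus strand: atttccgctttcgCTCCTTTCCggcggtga
Of the 56 members with an entry, 34 (60.7%) held such a run within 15 bases of the start, against 36.4% of all 27025 promoters searched in the same way.

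Motifs were searched on both strands. The letters CCGGAAG, a core bound by Ets factors, lay in the 250 upstream bases in 17 of the 56 members (30.4%) and in 7.05% of all promoters. CACGTG, the E-box that Myc binds, lay in 4 (7.14%) against 6.05% of all promoters, and TATAAA in 2 (3.57%) against 13%. The upstream bases of Rps2 and Rpl37, which had large fold changes between tumours and thymus, are shown with the matches in capitals, TATAAA and CCGGAAG (both on the reverse strand) in Rps2 and CCGGAAG in Rpl37.
Rps2, chr17:24719813-24720062, plus strand: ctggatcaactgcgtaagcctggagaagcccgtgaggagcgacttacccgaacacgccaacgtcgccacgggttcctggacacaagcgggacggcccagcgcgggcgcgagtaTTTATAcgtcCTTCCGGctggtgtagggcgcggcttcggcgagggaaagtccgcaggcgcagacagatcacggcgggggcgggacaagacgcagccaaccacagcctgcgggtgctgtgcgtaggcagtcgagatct
Rpl37, chr15:5116363-5116612, plus strand: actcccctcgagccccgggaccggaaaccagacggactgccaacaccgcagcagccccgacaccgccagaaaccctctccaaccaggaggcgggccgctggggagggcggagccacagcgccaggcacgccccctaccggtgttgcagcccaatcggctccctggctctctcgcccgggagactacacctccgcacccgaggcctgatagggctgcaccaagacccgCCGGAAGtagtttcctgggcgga
A match describes these letters only and was not tested as a binding site.

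In DN4 +/D cells the members differed widely in level per length. Rpl36 stood highest at a median of 2968 CPM per kilobase of annotated exon, followed by Rpl41, the smallest ribosomal protein, at 2202 CPM per kilobase, and the stalk protein Rplp1 stood at 2032 CPM per kilobase. The mouse genome carries many near copies of these genes, and 929 of them, of which 888 are annotated as processed pseudogenes, had rows of their own. Over all members, the gene's own row held a median of 79.1% of the counts of gene plus copies in the earlier run and 80.5% in the later run. The own-row share was 3.63% and 1.71% for Rpl5, 6.43% and 7.39% for Rps12, 11.3% and 7.42% for Rpl12 and 16.7% and 12% for Rpl27 in the earlier run and the later run in turn. Values of these 4 genes, and of Rps13 (12.8% in the earlier run), are uncertain, and the fold change with the near copies summed is given beside theirs. The own row held at least 50% in 56 members in the earlier run and 54 in the later run. It held less in both runs for Rpl10 (20.3% and 30.6%), Rpl37 (27.9% and 31.7%), Rpl28 (41.4% and 34.2%), Rpl11, Rpl15, Rpl30, Rpl23 and Rps6. Members not named below, among them Rps23, Rpl27a, Rpl35, Rpl31 and Rps7, were also under that share in both runs. Own-row values of these genes carry the same limit where no summed value is given. Counting strand is not given in the sources used here, and 17 members overlap another protein-coding gene, 15 of them a gene on the opposite strand.

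Summed over the 76 genes, ribosomal protein mRNA had its lowest group median in DP cells in the earlier run and in +/D thymus in the later run, where RERT2 D/AAA MYCChr6 tumours had the highest. Levels were set within a run only. Across the +/D stages the median sum was 48592 CPM in DN1, 47204 in DN2, 51252 in DN3, 57804 in DN4 and 18431 in DP cells. In the later run it was 45785 CPM in RERT2 D/AAA tumours, 47259 in those with p53(+/D), 74593 in those with MYCChr6, 61179 in LCK D/AAA MYCChr6 tumours and 60498 in LCK +/D MYCChr6 tumours, against 31855 in D/AAA thymus and 25072 in +/D thymus. Groups too small for a test were the 2 CD4 D/AAA MYCChr6 tumours, at 70127 and 76554 CPM, the 1 p53(-/-) tumour at 60966 CPM, the 2 +/D MYCChr6 thymus libraries at 29469.8 and 24112 CPM and the 1 DN2 D/AAA library at 33671 CPM. The large subunit outweighed the small one by a median factor of 1.27 in DN4 and 1.38 in DP cells, and by 1.296 in RERT2 D/AAA tumours and 1.26 in +/D thymus. Several libraries stood apart from their group. DN1 +/D replicate 1 summed to 23339 CPM with the other 5 at 44154 CPM or more, DP D/AAA replicate 1 to 60146 CPM with the other 10 at 28687 CPM or less, and early DP tumours 3 and 4 to 53421 and 51991 CPM with the other 3 at 25874, 29037 and 20322 CPM.

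**Figure D1:**
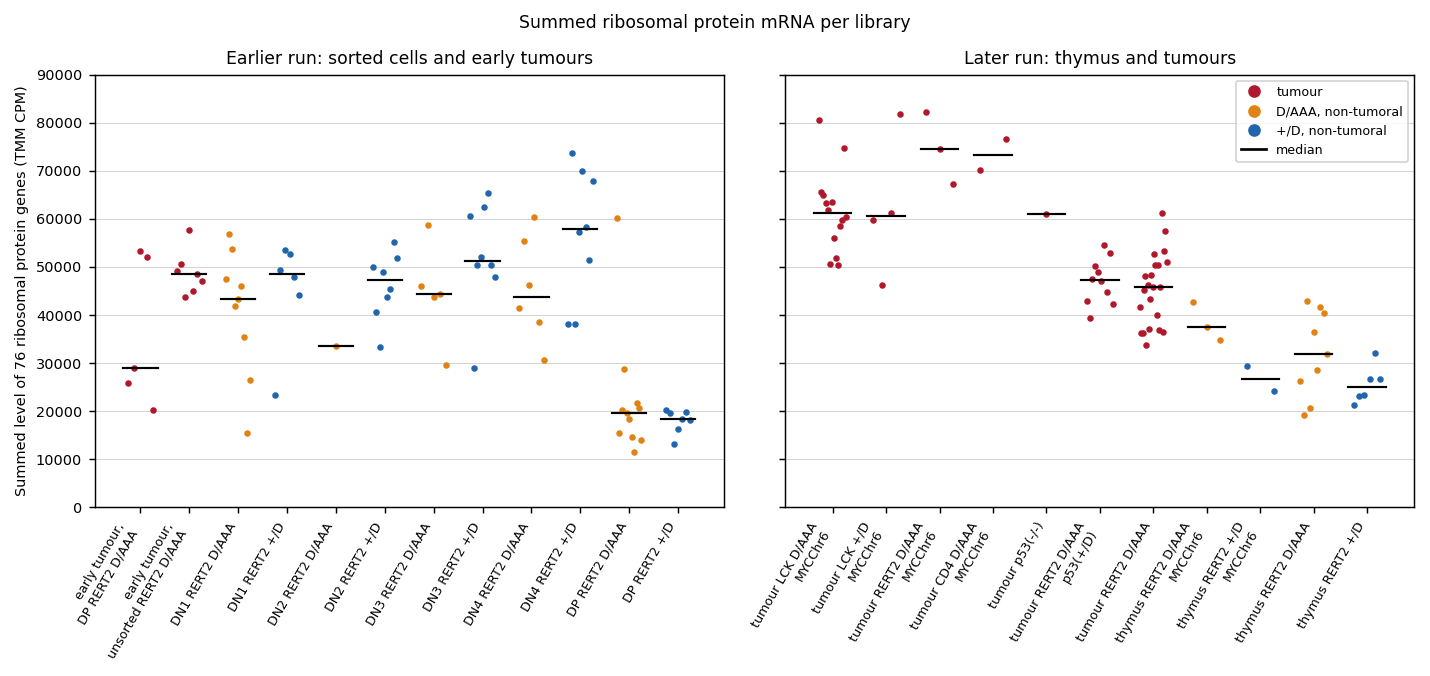
Summed level of the 76 ribosomal protein genes (TMM CPM, linear axis from 0) in each library of the earlier run (left) and the later run (right). Points are libraries, coloured as tumour, non-tumoral D/AAA or non-tumoral +/D, and bars are group medians; DP medians lie at 19635 (D/AAA) and 18431 CPM (+/D), below every other sorted population, and tumour medians of the later run lie above those of thymus.

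The plot of summed levels shows the size of the DP step: all 7 DP +/D libraries lay below the lowest DN4 +/D library, and all 22 RERT2 D/AAA tumours lay above the highest +/D thymus library (32019.7 CPM).

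**Figure D2:**
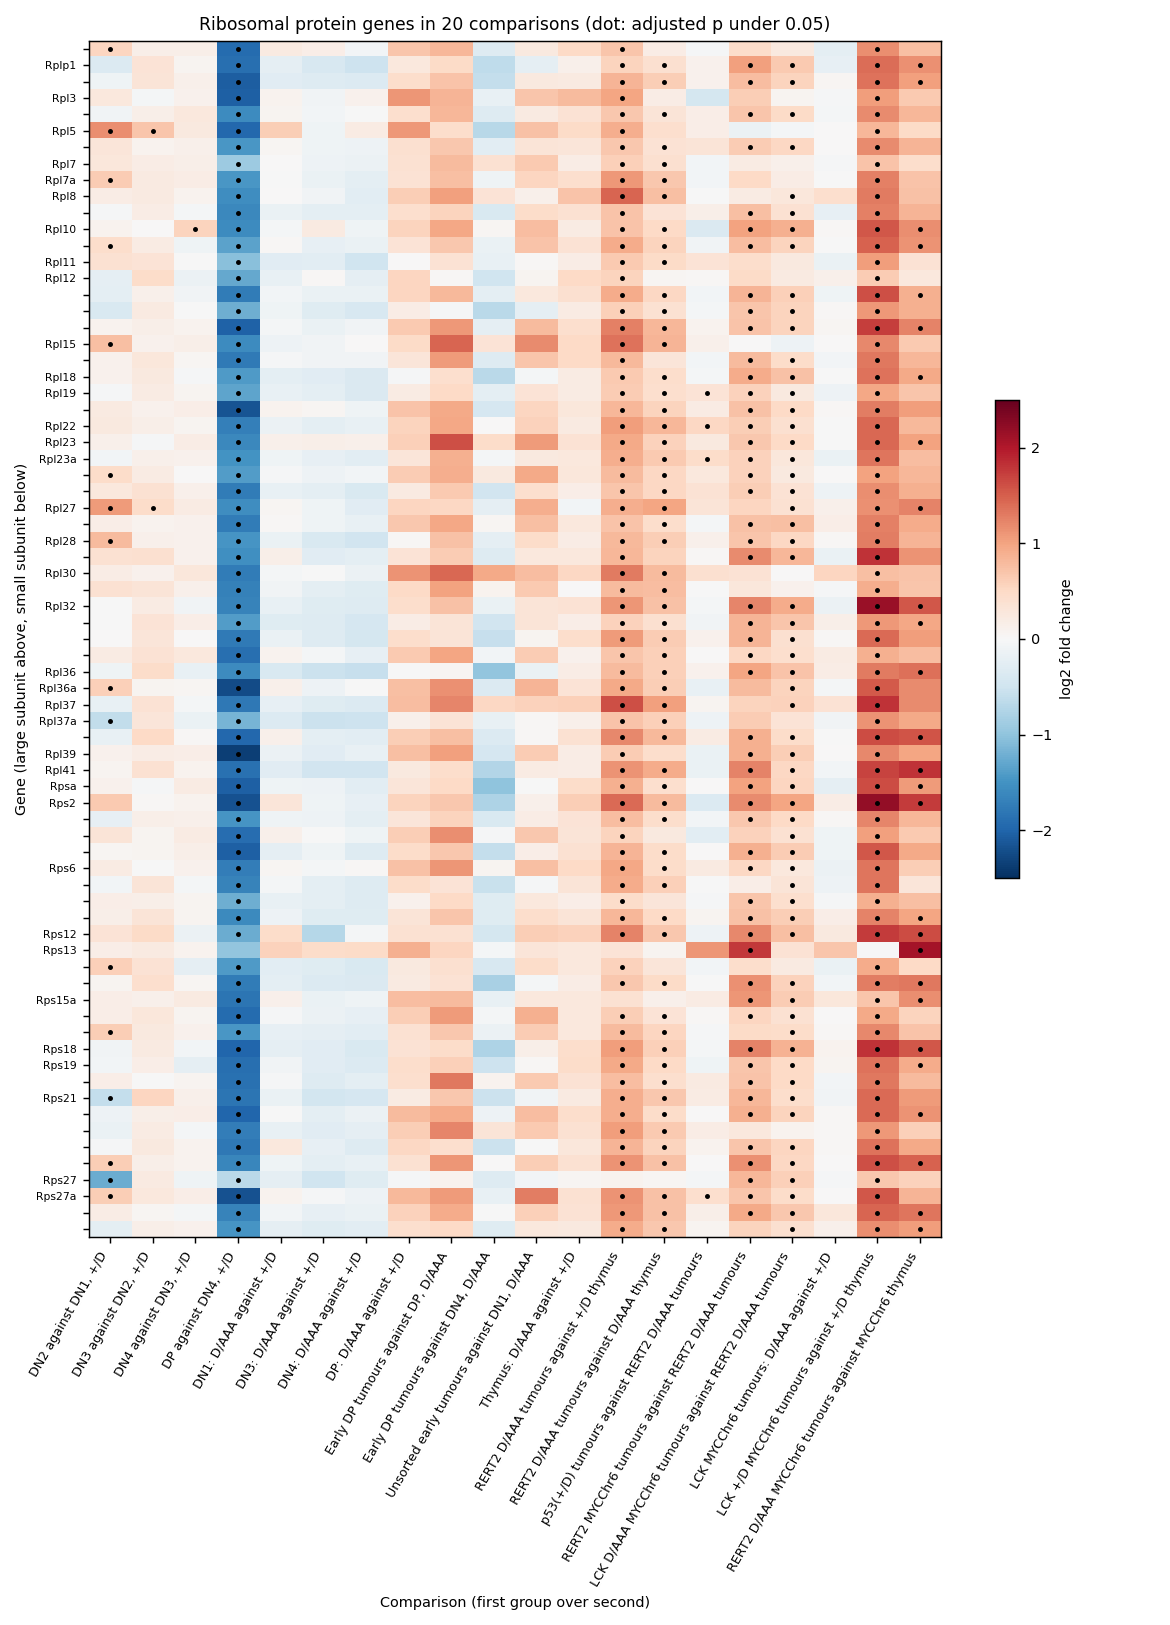
Log2 fold change (colour, first group over second) of 73 of the genes (rows, large subunit above, small subunit below; those named in the text are labelled) in the 20 comparisons (columns). A dot marks adjusted p under 0.05; the column of DP against DN4 is blue in all 73 rows with 72 dots, and those of tumours against thymus are red in nearly all rows.

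The heat map shows that the fold changes of most members shared a sign within a comparison, and that Rps13 and Rps27 departed from the others in more than 1 column.

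From DN1 to DN2 in +/D thymus, where T-lineage progenitors expand, the genes did not move as one. Of the 76, 14 were higher and 3 lower in DN2 cells (edgeR quasi-likelihood test, adjusted p under 0.05), beside 24.1% higher and 25.7% lower among the 13189 genes tested. The median log2 fold change of the members was 0.16, against -0.01 over all genes tested. Large-subunit genes gave 9 higher and 1 lower of 46, and small-subunit genes 5 higher and 2 lower of 30. In 3 members (Rpl7a, Rpl28 and Rpl27) every DN2 library lay above every DN1 library, as in 13.3% of all genes tested.

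Rpl28 (chr7:4792874-4795066, plus strand, ENSMUSG00000030432), a large-subunit protein whose start window holds a pyrimidine run, had 149.5, 183 and 273 CPM (lowest, median and highest of 8 libraries) in DN2 cells and 62.96, 121 and 143 CPM (lowest, median and highest of 6 libraries) in DN1 cells. The groups did not overlap, and the log2 fold change was 0.80 ± 0.19, adjusted p 0.00173 (0.74 ± 0.17, adjusted p 0.00127 with near copies summed). Rpl5, which binds 5S ribosomal RNA and, when free, Mdm2, had 13.2, 19.4 and 30.2 CPM in DN2 and 6.07, 9.11 and 13.8 CPM in DN1 cells (lowest, median, highest), with the lowest DN2 library just under the highest DN1 library. Its log2 fold change was 1.16 ± 0.28, adjusted p 0.00195, but 0.41 ± 0.16, adjusted p 0.0435 with near copies summed. The large-subunit gene Rpl27 had 72.4, 93.2 and 104 CPM in DN2 and 30.1, 45.5 and 54.1 CPM in DN1 cells with no overlap, a log2 fold change of 1.06 ± 0.15, adjusted p 7.92e-06, and 0.14 ± 0.17, adjusted p 0.532 with near copies summed, so that call was not made over the whole family.

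Rps27 (chr3:90212522-90213651, minus strand, ENSMUSG00000090733), a zinc-finger protein of the small subunit, was lower in DN2 cells. It had 683, 514, 501, 735, 769.9, 757, 941 and 868 CPM in the 8 DN2 libraries and 605, 1799, 2113, 1924, 1980.2 and 1630.3 CPM in the 6 DN1 libraries. DN1 replicate 1, the library with the low sum, was the lone DN1 library within the DN2 range. The log2 fold change of Rps27 was -1.23 ± 0.22, adjusted p 0.000135, while its paralogue Rps27l, a p53 target in human cells, was higher, at a median of 211 CPM in DN2 and 85.7 CPM in DN1 cells (1.44 ± 0.23, adjusted p 3.27e-05). Rpl37a of the large subunit and Rps21 of the small one were also lower in DN2 cells, at -0.62 ± 0.22, adjusted p 0.0272 and -0.61 ± 0.20, adjusted p 0.0179. Without DN1 replicate 1 the split was 13 higher and 9 lower, with a median of 0.02.

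Lists of other translation genes held more genes higher than lower in DN2 cells. Of 20 translation factors and further TOP mRNAs 12 were higher and 2 lower (median 0.39), led by Hnrnpa1, an RNA-binding protein, at 1.81 ± 0.16, adjusted p 4.42e-08. Of 13 chaperones and importers of ribosomal proteins 10 were higher and 0 lower (median 0.66), among them the importin Ipo5 at 1.29 ± 0.14, adjusted p 5.28e-07. Of 78 mitochondrial ribosomal proteins 50 were higher and 1 lower (median 0.57). Markers of other cell types differed between the same libraries. Of these, the B cell markers (0 of the 4 tested higher and 4 lower) summed to 40.5 to 171 CPM (median 104) in DN2 and 752 to 2719 CPM (median 1051) in DN1. Likewise, the NK and innate T markers (0 of the 5 tested higher and 5 lower) summed to 171 to 486 CPM (median 273) in DN2 and 3377 to 4841 CPM (median 4577) in DN1. Last, the myeloid markers (0 of the 3 tested higher and 3 lower) summed to 44.5 to 84.2 CPM (median 70.4) in DN2 and 168 to 1682 CPM (median 841) in DN1. Their part in the difference was not tested.

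From DN2 to DN3, the stage of beta-chain rearrangement, 2 members were higher and 0 lower in DN3 cells (18 at unadjusted p under 0.05), beside 1.11% higher and 2.52% lower of 12477 genes. The fold changes leaned one way, with 71 positive and 5 negative and a median of 0.20 against 0.01 over all genes. The 2 were Rpl5 (0.70 ± 0.19, adjusted p 0.0332) and Rpl27 (0.45 ± 0.12, adjusted p 0.036). With near copies summed Rpl5 had 0.22 ± 0.12, adjusted p 0.434 and Rpl27 had 0.31 ± 0.14, adjusted p 0.257, and neither passed. Of the 2 B cell markers tested 1 was lower in DN3 cells, as were 1 of the 2 NK and innate T markers and the 1 myeloid marker tested. The part of these markers was not tested.

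From DN3 to DN4, after beta selection, 1 member was higher and 0 lower in DN4 cells (2 at unadjusted p under 0.05), beside 7.85% higher and 9.9% lower of 12427 genes. It was Rpl10 (chrX:74270812-74273135, plus strand, ENSMUSG00000008682), a large-subunit protein that joins late in the cytoplasm and is recurrently mutated in human T-cell leukaemia. Rpl10 had 154, 277, 179, 218, 171, 142, 195 and 234 CPM in DN4 and 159, 127, 125, 131, 126, 113, 124 and 119 CPM in DN3 cells, and the 2 groups overlapped. The log2 fold change was 0.55 ± 0.13, adjusted p 0.00391, and 0.39 ± 0.15, adjusted p 0.0837 with near copies summed. Hnrnpa1 and the nucleolar protein Npm1 were among the 3 genes higher of 20 translation factors and TOP mRNAs, at 0.48 ± 0.13 and 0.47 ± 0.14 log2. Across the same libraries, the red cell markers (5 of the 5 tested higher and 0 lower) summed to 118 to 3182 CPM (median 706) in DN4 and 0.139 to 5.44 CPM (median 2.45) in DN3. Of the 2 B cell markers tested 1 was higher and 0 lower, and of the 3 NK and innate T markers 1 was higher and 0 lower. The 1 myeloid marker tested was lower. The part of these markers was not tested.

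From DN4 to DP, 75 of the 76 genes fell. All 76 fold changes were negative, and the 75 called compare with 26.3% lower and 28.7% higher of 12272 genes tested. The median log2 fold change was -1.68 for the members and 0.06 for all genes. Both subunits took part, with 46 of 46 large-subunit genes lower (median -1.61) and 29 of 30 small-subunit genes lower (median -1.74). In 72 members, all but Rps27, Rps13, Rps12 and Rpl11, every DP library lay below every DN4 library, as in 14.7% of all genes tested. The summed level was 18431 CPM in DP and 57804 CPM in DN4 cells (medians), a ratio of 0.319, and the sum took a median of 1.92% of all DP counts and 5.36% of DN4 counts.

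**Figure D3:**
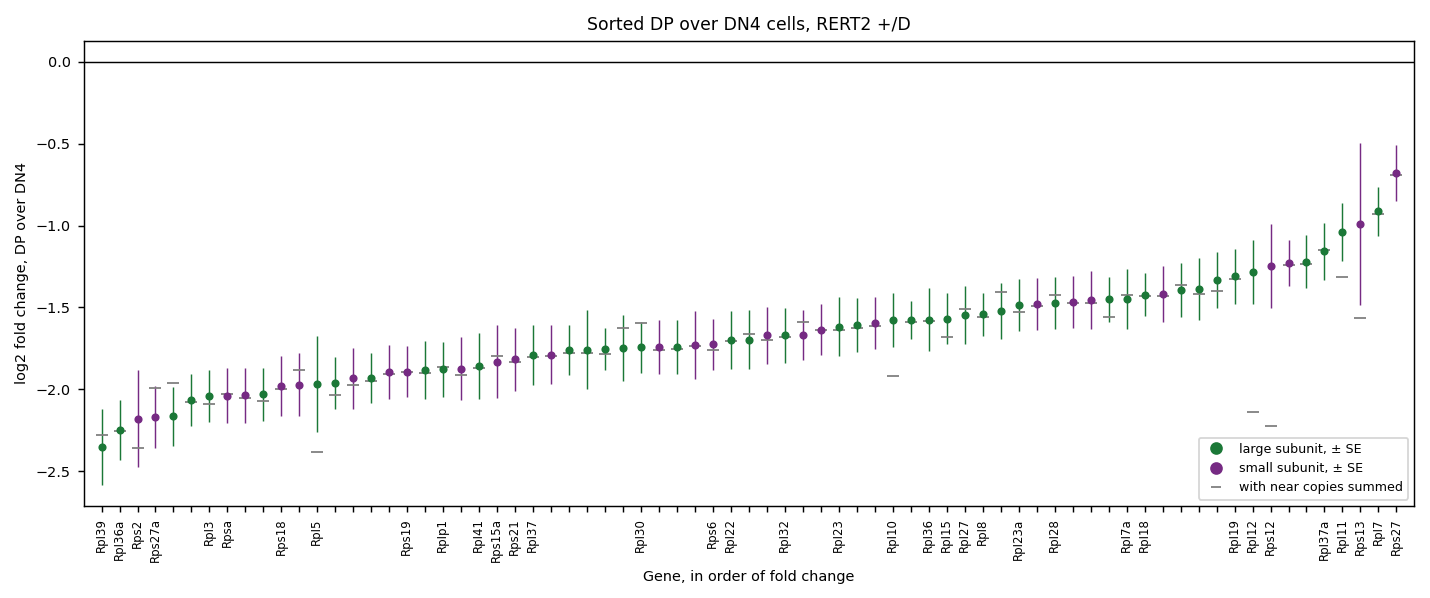
Log2 fold change of 73 of the genes (x axis, ordered by fold change, with those named in the text labelled) in sorted DP over DN4 cells of RERT2 +/D thymus, with SE bars, green for the large and purple for the small subunit. Grey dashes give the value with near copies summed; every point lies below 0, from Rpl39 at -2.35 to Rps27 at -0.68.

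The plot of DP over DN4 fold changes shows how unequal the fall was. In the large subunit it was greatest for Rpl39, which lines the exit tunnel, at 44.95, 41.2, 25.2, 29.1, 28.01, 41.7 and 40.9 CPM in the 7 DP libraries and 99.5, 190.3 and 279 CPM in DN4 cells (lowest, median, highest; -2.35 ± 0.23, adjusted p 4.44e-08), and for Rpl36a (-2.25 ± 0.18, adjusted p 3.67e-09). No DP library reached the lowest DN4 library in either gene. Rpl3, which reaches the peptidyl transferase centre, stood at -2.04 ± 0.16, Rpl41 at -1.86 ± 0.20, Rpl30 at -1.74 ± 0.16, Rpl10 at -1.58 ± 0.17 and Rpl8 at -1.54 ± 0.13. Of the 5S RNP pair, Rpl5 fell by 1.97 ± 0.29 and Rpl11 by 1.04 ± 0.18 on the log2 scale, and with near copies summed Rpl5 had -2.38 ± 0.15, adjusted p 1.04e-10. Rpl7 had the smallest fold change of the large subunit, at -0.91 ± 0.15, adjusted p 3.34e-05.

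Rpl22 (chr4:152325742-152334071, plus strand, ENSMUSG00000028936), which mice need for alpha-beta T-cell development and which is deleted in some human T-cell leukaemias, had 48.1, 48.7, 29.9, 48.5, 53.96, 49.7 and 55.9 CPM in DP cells and 107, 163 and 235 CPM (lowest, median and highest of 8 libraries) in DN4 cells. The groups did not overlap (-1.70 ± 0.18, adjusted p 1.12e-07). Its paralogue Rpl22l1 also fell (-1.93 ± 0.27, adjusted p 4.92e-06), as did Rps27l (-2.13 ± 0.18, adjusted p 8.11e-09) and the other 3 paralogues tested.

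In the small subunit, Rps2, near the mRNA entry channel, stood at -2.18 ± 0.30, Rpsa, also known as the laminin receptor, at -2.04 ± 0.17, and Rps19, mutated in Diamond-Blackfan anaemia, at -1.89 ± 0.16. Rps27 fell least, with 532, 539, 308, 496, 496, 529.9 and 468 CPM in DP and 443, 865 and 1084 CPM in DN4 cells, which overlapped (-0.68 ± 0.17, adjusted p 0.00221). Rps13, the 1 member not called, had -0.99 ± 0.50, adjusted p 0.102 on its own row and -1.57 ± 0.16, adjusted p 7.95e-08 with its near copies summed.

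Genes that work with the ribosome fell too. All 3 ribosomal protein genes outside the symbol rule were lower, Fau, fused to a ubiquitin-like protein, at -1.53 ± 0.19. Of 20 translation factors and TOP mRNAs 19 were lower (median -1.39), with Npm1 at -2.87 ± 0.16, adjusted p 1.45e-11 and the elongation factor subunit Eef1g at -2.24 ± 0.13, adjusted p 1.89e-11. Of 13 chaperones and importers 12 were lower (median -1.56), with Grwd1, a chaperone of Rpl3, at -3.01 ± 0.18, adjusted p 6.48e-11. Of 78 mitochondrial ribosomal proteins 64 were lower (median -0.95). Myc had a median of 17.8 CPM in DP and 455 CPM in DN4 cells. The red cell markers (0 of the 5 tested higher and 5 lower) summed to 0.495 to 11.5 CPM (median 1.36) in DP and 118 to 3182 CPM (median 706) in DN4. Of the 3 NK and innate T markers tested 0 were higher and 2 lower (median log2 fold change -4.52). Of the 2 B cell markers tested 0 were higher and 1 lower, and the 1 myeloid marker tested was higher (4.76). The part of Myc and of these markers was not tested.

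Between genotypes, no member passed the test in any sorted population. In DN1 cells 0 members were called and 0 had an unadjusted p under 0.05, with a median log2 fold change (D/AAA over +/D) of -0.09, beside 0.0% of 12822 genes called. In DN3 cells 0 were called and 2 had an unadjusted p under 0.05, with 70 of 76 fold changes negative and a median of -0.23, beside 0.0% of 12912 genes. In DN4 cells 0 were called and 6 had an unadjusted p under 0.05, with 70 negative and a median of -0.25, beside 0.0081% of 12348 genes. Rpl28 had the lowest p there, at 103, 155.8 and 215 CPM in D/AAA and 169.8, 226 and 317 CPM in +/D cells, which overlapped (-0.48 ± 0.17, adjusted p 0.763). In these DN4 libraries, the red cell markers (0 of the 5 tested higher and 0 lower) summed to 1823 to 37097 CPM (median 15677) in D/AAA and 118 to 3182 CPM (median 706) in +/D, and their part was not tested.

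In DP cells the lean was the other way. Of the 76 fold changes 73 were positive in D/AAA cells and the median was 0.44 against 0.05 over all genes. Of the members 28 had an unadjusted p under 0.05 and 0 were called, beside 0.00803% of 12451 genes. The summed level differed less, with medians of 19635 CPM in D/AAA and 18431 CPM in +/D cells, a ratio of 1.065. In the sum 4 of the 11 D/AAA libraries lay above every +/D library and 1 lay below every one, and replicate 1 stood far above the other D/AAA libraries. Rps6, the small-subunit target of S6 kinases, had 470.1, 169, 179, 275, 236, 218, 251, 151, 281, 348 and 236 CPM in the 11 D/AAA libraries and 164, 185, 107, 150.3, 171, 168 and 168 CPM in the 7 +/D libraries. Of the 11 D/AAA libraries 8 lay above every +/D library and 3 did not, and replicate 1 was the highest (0.73 ± 0.20, adjusted p 0.264). With near copies summed Rps6 had 0.52 ± 0.21, adjusted p 0.407. Rpl3 had 225, 354 and 1312 CPM in D/AAA and 149, 216 and 301 CPM in +/D cells (lowest, median, highest; 1.11 ± 0.32, adjusted p 0.269), and Rpl30 had 61.2, 72.8 and 497 CPM in D/AAA and 46.98, 56.01 and 70.6 CPM in +/D cells (1.13 ± 0.38, adjusted p 0.31). The groups overlapped in both genes. With near copies summed Rpl3 had 0.69 ± 0.27, adjusted p 0.377, and Rpl30 had 0.90 ± 0.35, adjusted p 0.385. Rpl3 and Rpl30 are on chromosome 15, whose 4 members had a median of 0.94, against 0.43 for the 72 others. The other genes tested on that chromosome had a median of 0.26, with 344 positive and 116 negative, and their part was not tested. DESeq2 also called 0 members in these 4 comparisons. The interaction of genotype with stage gave 0 members called, 10 at unadjusted p under 0.05 and a lowest adjusted p of 0.296, beside 0.134% of 16403 genes called.

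Early DP tumours tended to carry more ribosomal protein mRNA than DP cells of the same genotype, but no member passed the test. Of the fold changes 75 were positive and 1 negative, with a median of 0.70 against -0.07 over all genes; 37 had an unadjusted p under 0.05 and 0 were called, beside 0.0% of 12245 genes. DESeq2 called 13. Rpl15, a large-subunit protein with a pyrimidine run at its start, had 181, 462, 804, 677 and 417 CPM in the 5 tumours and 94.7, 169.9 and 389 CPM (lowest, median and highest of 11 libraries) in DP cells. Tumours 2 to 5 exceeded every DP library and tumour 1 lay within the DP range (1.45 ± 0.29, adjusted p 0.0718). Rpl23, another Mdm2 binder, had 128, 178, 429, 476 and 138 CPM in tumours and 34.7, 79.9 and 203 CPM in DP cells (1.61 ± 0.33, adjusted p 0.0718). Tumours 3 and 4 lay above every DP library in Rpl23, as the others did not, and were the high ones in the sum too. With near copies summed Rpl15 had 1.10 ± 0.31, adjusted p 0.0877, and Rpl23 had 1.27 ± 0.36, adjusted p 0.0877.

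Myc varied among the same tumours. Myc had 35.3, 209.5, 372, 316 and 288 CPM in tumours 1 to 5 and 12.2, 46.9 and 293 CPM in DP D/AAA cells, and the thymocyte markers (0 of the 6 tested higher and 0 lower) summed to 4449 to 15161 CPM (median 6908) in tumours and 6455 to 15087 CPM (median 10376) in DP cells; their part was not tested. When DP replicates 1 and 5 were left out, 55 members were called, and 54 when the fit held the libraries with higher title numbers alone. Without early DP tumour 1 the count was 21.

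Against DN4 D/AAA cells the early DP tumours leaned lower. Of the fold changes 61 were negative and 15 positive (median -0.28, all genes 0.02); 9 had an unadjusted p under 0.05, 0 were called by edgeR and 1 by DESeq2, beside 4.31% of 11292 genes. Rpsa had 616, 700.3, 1320.3, 1355 and 584 CPM in tumours and 1064, 1975 and 2366 CPM in DN4 cells, which overlapped (-1.0 ± 0.28, adjusted p 0.0539). In the same libraries the red cell markers (0 of the 5 tested higher and 5 lower) summed to 0.531 to 84.4 CPM (median 1.89) in tumours and 1823 to 37097 CPM (median 15677) in DN4 cells. In turn, the thymocyte markers (4 of the 6 tested higher and 0 lower) summed to 4449 to 15161 CPM (median 6908) in tumours and 2497 to 3245 CPM (median 2712) in DN4 cells. Further, the NK and innate T markers (0 of the 3 tested higher and 2 lower) summed to 1.59 to 15.5 CPM (median 9.38) in tumours and 50.3 to 99.9 CPM (median 76.6) in DN4 cells; their part was not tested. The 4 members on chromosome 15 (Rpl3, Rpl8, Rpl30 and Rpl37) had a median of 0.43, the 72 others -0.31, and the other genes of that chromosome 0.59.

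Unsorted early tumours were set against DN1 D/AAA cells. Of the fold changes 65 were positive (median 0.43, all genes 0.01), 26 members had an unadjusted p under 0.05 and edgeR called 0, beside 0.00862% of 11605 genes; DESeq2 called 17. In 12 members every tumour library lay above every DN1 library, as in 0.353% of all genes tested. Rps27a, made as a fusion with ubiquitin, had 409, 512 and 648 CPM (lowest, median and highest of 7 libraries) in tumours and 0, 199 and 320.3 CPM (lowest, median and highest of 9 libraries) in DN1 cells, with no overlap (1.27 ± 0.29, adjusted p 0.158). The DN1 value of 0 is that of the library with 21199 counts, and 6 members were called without it. Tumours 2 and 3 were low in markers of NK and innate T cells, which summed to 72.8 and 78.5 CPM against a median of 6040.1 CPM over the group, and without these 2 tumours 0 members were called. Over all 7 tumours against DN1, the 5 thymocyte markers tested had 0 higher and 0 lower (median log2 fold change 0.18). The 5 NK and innate T markers also had 0 higher and 0 lower (median -0.06). The part of these markers was not tested.

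In whole thymus, D/AAA against +/D, 75 fold changes were positive and 1 negative with a median of 0.32 (all genes 0.02). No member passed (0 called by edgeR and by DESeq2, 21 at unadjusted p under 0.05), beside 0.0% of 11044 genes called. Rpl3 had 419, 799 and 1282 CPM (lowest, median and highest of 9 libraries) in D/AAA thymus and 319, 524 and 644 CPM (lowest, median and highest of 6 libraries) in +/D thymus. The groups overlapped (0.78 ± 0.24, adjusted p 0.433). Rpl8, at the core of the large subunit, followed with 0.71 ± 0.24, adjusted p 0.464. Both genes are on chromosome 15, whose 4 members had a median of 0.65 and whose other 419 genes tested had 0.27. Across the same libraries, the thymocyte markers (0 of the 6 tested higher and 0 lower) had 0 positive and 6 negative fold changes (median -0.44). The red cell markers (0 of the 5 tested higher and 0 lower) had 5 positive and 0 negative (median 1.455). The part of these markers was not tested.

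RERT2 D/AAA tumours held more ribosomal protein mRNA than +/D thymus across nearly the whole set. These groups differ in Cdc20 genotype as well as in tumour, which cannot be told apart in this comparison. The comparison with thymus of the same genotype is given further below. Of the 76 members 73 were higher and 0 lower, beside 22.4% higher and 19.1% lower of 12381 genes, with a median log2 fold change of 0.83 against 0.05. The large subunit gave 46 of 46 (median 0.81) and the small subunit 27 of 30 (median 0.87). In 23 members all 22 tumours lay above all 6 thymus libraries, as in 4.04% of genes tested.

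Rpl37 (chr15:5116645-5119140, plus strand, ENSMUSG00000041841), a zinc-binding large-subunit protein, had 121, 206 and 298 CPM (lowest, median and highest of 22 libraries) in tumours and 46.7, 48.3, 59.8, 70.5, 95.2 and 71.8 CPM in thymus. The groups did not overlap and it showed the largest fold change of the set (1.62 ± 0.18, adjusted p 3.12e-08). Rpl8 (chr15:76904078-76906314, plus strand, ENSMUSG00000003970) had 1263, 1798 and 2409 CPM in tumours and 587, 569, 554, 636, 794 and 720.4 CPM in thymus, again with no overlap (1.46 ± 0.13, adjusted p 3.27e-10). Rps2 (chr17:24718116-24721929, plus strand, ENSMUSG00000044533) had 259, 463 and 776 CPM in tumours and 197, 192, 190.1, 106, 211 and 189.8 CPM in thymus (1.43 ± 0.21, adjusted p 1.75e-06). The lowest Rps2 tumour was above the highest thymus library.

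Of the other members named in every comparison or in several, Rpl30 stood at 1.31 ± 0.19, adjusted p 1.88e-06, Rpl41 at 1.12 ± 0.19, adjusted p 1.35e-05, Rpl22 at 1.05 ± 0.14, adjusted p 8.43e-07, Rpl3 at 0.98 ± 0.21, adjusted p 0.000373, Rps19 at 0.96 ± 0.16, adjusted p 1.31e-05, Rpsa at 0.89 ± 0.12, adjusted p 8.02e-07 and Rpl10 at 0.72 ± 0.17, adjusted p 0.000872. The 5S RNP genes Rpl5 and Rpl11 stood at 0.90 ± 0.23 and 0.66 ± 0.14, with Rpl5 at 0.79 ± 0.12, adjusted p 3.21e-06 with near copies summed. The 3 members not called belong to the small subunit. Rps27 had 263, 479 and 834 CPM in tumours and 308, 439 and 566 CPM in thymus (0.09 ± 0.16, adjusted p 0.682), Rps15a had 0.38 ± 0.20, adjusted p 0.135, and Rps13 had 0.34 ± 0.45, adjusted p 0.575 (0.67 ± 0.13, adjusted p 6.58e-05 with near copies summed). While Rps27 was not called, Rps27l was higher, at a median of 67.6 CPM in tumours and 22.6 CPM in thymus (1.59 ± 0.20, adjusted p 2.11e-07).

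The 3 ribosomal protein genes outside the symbol rule were all higher, as were 4 of 6 paralogues, 17 of 20 translation factors and TOP mRNAs (median 0.86; Pabpc1, the poly(A)-binding protein, 1.77 ± 0.11, adjusted p 8.78e-13), 9 of 13 chaperones and importers (median 1.12) and 63 of 78 mitochondrial ribosomal proteins (median 0.81). Of markers, the B cell markers (0 of the 3 tested higher and 3 lower) summed to 0.18 to 31.4 CPM (median 3.87) in tumours and 24.8 to 134 CPM (median 42.6) in thymus, and the thymocyte markers (0 of the 6 tested higher and 6 lower) summed to 1678 to 3941 CPM (median 2549) in tumours and 6110.4 to 7255 CPM (median 6575) in thymus. Further, the NK and innate T markers (0 of the 3 tested higher and 2 lower) summed to 0.209 to 37.7 CPM (median 8.04) in tumours and 29.7 to 65.7 CPM (median 38.8) in thymus, and the myeloid markers (2 of the 5 tested higher and 0 lower) summed to 21.8 to 155 CPM (median 58.3) in tumours and 13.9 to 55.1 CPM (median 32.9) in thymus; their part was not tested. Against D/AAA thymus, 61 members were higher and 0 lower, beside 18.1% higher and 16.8% lower of 11634 genes, with a median of 0.52 (all genes 0.04). Both comparisons share the 22 tumours. In the same libraries the red cell markers (0 of the 5 tested higher and 5 lower) summed to 6.64 to 1414 CPM (median 51.9) in tumours and 19.3 to 1989 CPM (median 640.2) in D/AAA thymus. Likewise the B cell markers (0 of the 3 tested higher and 3 lower) summed to 0.18 to 31.4 CPM (median 3.87) in tumours and 6.69 to 204 CPM (median 71.01) in D/AAA thymus. Further, the thymocyte markers (0 of the 6 tested higher and 5 lower) summed to 1678 to 3941 CPM (median 2549) in tumours and 3081 to 7189 CPM (median 5282) in D/AAA thymus, and the NK and innate T markers (0 of the 3 tested higher and 2 lower) summed to 0.209 to 37.7 CPM (median 8.04) in tumours and 11.2 to 133 CPM (median 81.2) in D/AAA thymus; their part was not tested. The largest fold change was again that of Rpl37 (1.03 ± 0.20, adjusted p 0.000158), Rpl27 was next (0.98 ± 0.14, adjusted p 5.22e-06; 0.67 ± 0.11, adjusted p 2.55e-05 with near copies summed), Rpl41 followed (0.93 ± 0.18, adjusted p 0.000129), and Rpl3 was not called (0.19 ± 0.19, adjusted p 0.45). In 1 member, Rpl27, every tumour lay above every D/AAA thymus library, as in 0.112% of genes tested.

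**Figure D4:**
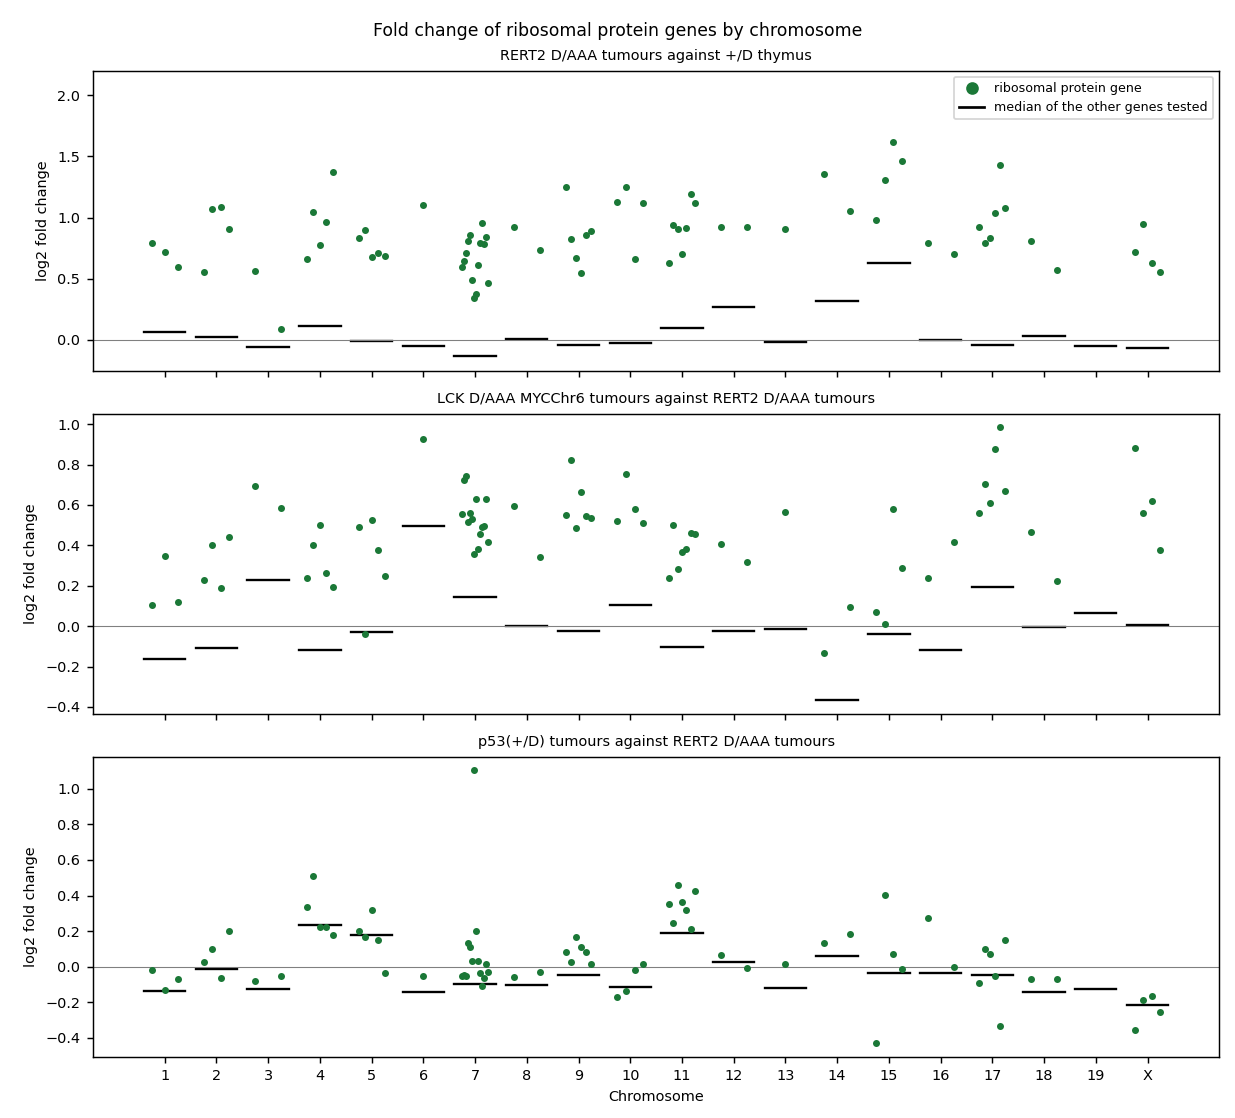
Log2 fold change of each ribosomal protein gene (green points) by chromosome in 3 tumour comparisons, first group over second; black bars are the median of the other genes tested on that chromosome. In tumours against +/D thymus (top) every point lies above its bar, and the bar of chromosome 15 lies highest at 0.63.

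The members lie on 19 chromosomes, with 14 on chromosome 7, and the plot by chromosome sets them beside their neighbours. In tumours against +/D thymus the other genes of chromosome 15 had a median of 0.63, of chromosome 14 0.32 and of chromosome 12 0.27, and the 4 members on chromosome 15 had a median of 1.38. The 72 members elsewhere had 0.82, with 69 higher. On chromosome 7, where the other genes had -0.13, the 14 members had a median of 0.68.

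Tumours with p53(+/D), set against those with D/AAA alone, differed in few members. Of the 76 members 4 were higher and 0 lower (17 at unadjusted p under 0.05), beside 0.742% higher and 0.55% lower of 11453 genes, with medians of 0.03 for the members and -0.02 for all genes. Rpl22 had 121, 243 and 273 CPM (lowest, median and highest of 10 libraries) in p53(+/D) tumours and 115, 160.3 and 237 CPM (lowest, median and highest of 22 libraries) in the others. Of the 10 p53(+/D) values 1 lay near the bottom of the other range and the groups overlapped (0.51 ± 0.11, adjusted p 0.0137). Rpl23a, beside the exit tunnel, stood at 0.46 ± 0.09, adjusted p 0.00418, Rps27a at 0.42 ± 0.09, adjusted p 0.011 and Rpl19, another large-subunit gene, at 0.35 ± 0.09, adjusted p 0.0265. Rpl3 and Rpl10 had -0.43 ± 0.21, adjusted p 0.327 and -0.36 ± 0.15, adjusted p 0.264. Rps13 stood at 1.11 ± 0.31, adjusted p 0.0682 on its own row and at 0.07 ± 0.09, adjusted p 0.804 with near copies summed.

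Rpl22l1, whose expression Rpl22 protein is known to repress, was lower, with 7.72, 13.1 and 33.7 CPM in p53(+/D) tumours and 10.5, 38.5 and 74.2 CPM in the others (-1.29 ± 0.26, adjusted p 0.0054). In the 1 p53(-/-) tumour Rpl22 was at 337 CPM and Rpl22l1 at 12.8 CPM, with no replicate. Rpl22 lies on chromosome 4 and Rpl23a, Rps27a and Rpl19 on chromosome 11. The other genes tested had a median of 0.23 on chromosome 4 and 0.19 on chromosome 11, and the 5 members of chromosome 4 had 0.22; the part of these chromosome-wide differences was not tested.

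**Figure D5:**
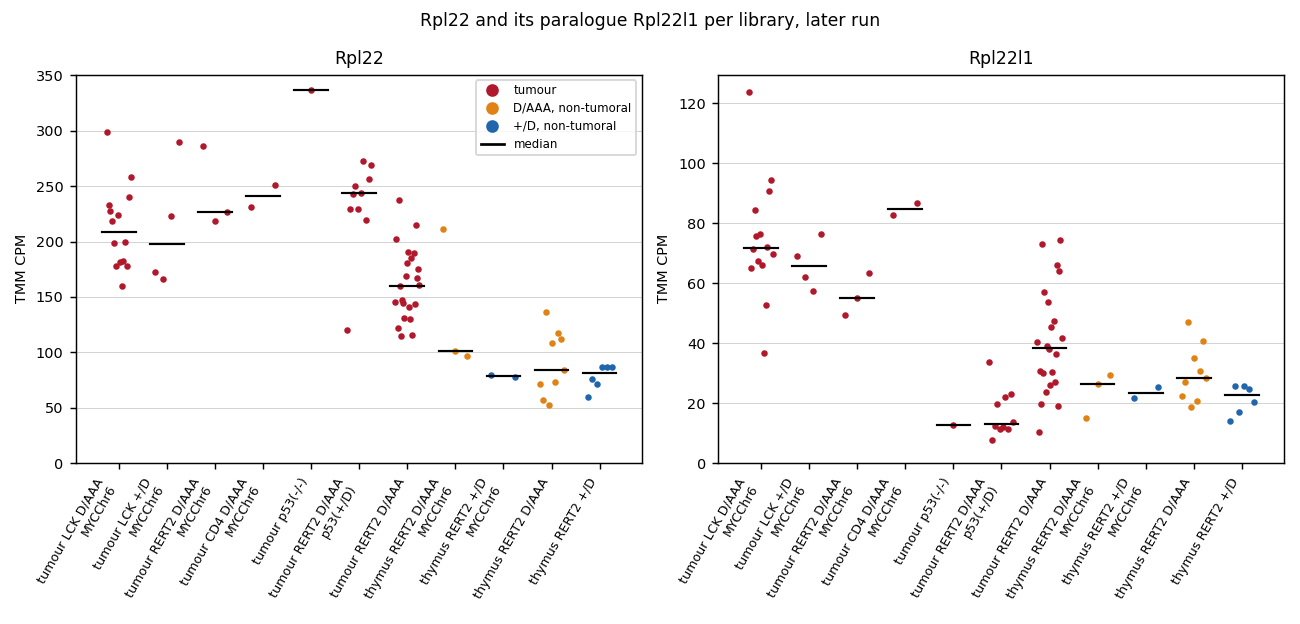
Level of Rpl22 (left) and of its paralogue Rpl22l1 (right) in each library of the later run (TMM CPM, linear axes from 0, different scales); bars are group medians. Rpl22 has medians of 243 CPM in p53(+/D) and 160.3 CPM in other RERT2 D/AAA tumours, and Rpl22l1 has 13.1 CPM in p53(+/D) and 38.5 CPM in other RERT2 D/AAA tumours.

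The plot of Rpl22 and Rpl22l1 shows that the p53(+/D) library lowest in Rpl22, at 121 CPM, was the one highest in Rpl22l1, at 33.7 CPM. Both genes were higher in LCK D/AAA MYCChr6 tumours than in RERT2 D/AAA tumours, with a median Rpl22 of 209 CPM in LCK and 160.3 CPM in RERT2 tumours (0.40 ± 0.10, adjusted p 0.00125) and a median Rpl22l1 of 71.6 CPM in LCK and 38.5 CPM in RERT2 tumours (0.89 ± 0.19, adjusted p 0.000315).

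RERT2 D/AAA MYCChr6 tumours had more ribosomal protein mRNA than tumours without MYCChr6. Against RERT2 D/AAA tumours they had 54 members higher and 0 lower, beside 5.65% higher and 3.57% lower of 13708 genes, with a median of 0.70 against -0.03. The large subunit gave 31 of 46 and the small subunit 23 of 30. In 34 members all 3 MYCChr6 tumours lay above all 22 others, as in 1.62% of genes tested. With 3 tumours the count rests on few libraries, and leaving out 1 of them at a time gave 32 (without replicate 1) to 43.

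Rps18 (chr17:33951999-33956001, minus strand, ENSMUSG00000008668), in the head of the small subunit, had 1661, 1365 and 1752 CPM in MYCChr6 tumours and 394, 669.8 and 963 CPM (lowest, median and highest of 22 libraries) in the others. Rpl41 had 3544, 3118 and 2763 CPM in MYCChr6 tumours and 782, 1297 and 2144 CPM in the others. The groups overlapped in neither gene (1.25 ± 0.21, adjusted p 0.000145 for Rps18 and 1.24 ± 0.21, adjusted p 0.000186 for Rpl41). Rps13 had a larger fold change on its own row, 1.76 ± 0.51, adjusted p 0.0298, than with near copies summed, 0.69 ± 0.15, adjusted p 0.00236. Rps27, not called between tumours and thymus, was higher here (0.83 ± 0.19, adjusted p 0.00565), as were Rpl10 (1.01 ± 0.21, adjusted p 0.00178) and Rpsa (1.0 ± 0.15, adjusted p 2.98e-05). Rpl8 (0.20 ± 0.15, adjusted p 0.482), Rpl30 (0.35 ± 0.21, adjusted p 0.324) and Rpl15 (0.01 ± 0.19, adjusted p 0.991) were not called, and their chromosomes 15 and 14 had medians of -0.27 and -0.47 over the other genes.

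Rpl5 had -0.14 ± 0.30, adjusted p 0.845 on its own row and 0.73 ± 0.14, adjusted p 0.00117 with near copies summed, a change of sign. Of the partner lists, 8 of 20 translation factors and TOP mRNAs were higher and 0 lower, with the elongation factor Eef2 at 0.98 ± 0.20, adjusted p 0.00144, while 0 of 13 chaperones and importers were higher and 1 lower, Ipo9 at -0.98 ± 0.30, adjusted p 0.0361, and 2 of 78 mitochondrial ribosomal proteins were higher and 1 lower. The medians were 0.37, -0.02 and 0.11 for these lists. Of markers, the B cell markers (4 of the 4 tested higher and 0 lower) summed to 4.08 to 268 CPM (median 145) in MYCChr6 tumours and 0.18 to 31.4 CPM (median 3.87) in the others, and the thymocyte markers (0 of the 6 tested higher and 3 lower) summed to 1108 to 1700.3 CPM (median 1436) in MYCChr6 tumours and 1678 to 3941 CPM (median 2549) in the others. Further, the NK and innate T markers (2 of the 3 tested higher and 0 lower) summed to 38.9 to 249 CPM (median 177) in MYCChr6 tumours and 0.209 to 37.7 CPM (median 8.04) in the others. The myeloid markers (1 of the 5 tested higher and 0 lower) had 5 positive and 0 negative fold changes, with a median of 1.72. The part of these markers was not tested.

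LCK D/AAA MYCChr6 tumours, against the same RERT2 D/AAA tumours, had 61 members higher and 0 lower, beside 18.6% higher and 16.7% lower of 11130 genes, and a median of 0.49 against 0.00. Rps2 had 532, 926 and 1587 CPM (lowest, median and highest of 14 libraries) in LCK tumours and 259, 463 and 776 CPM in RERT2 tumours, and the groups overlapped (0.98 ± 0.14, adjusted p 8.75e-07). Rpl32 followed (0.93 ± 0.12, adjusted p 1.66e-07), a large-subunit gene on chromosome 6 whose other genes had a median of 0.49. Rpl10 stood at 0.88 ± 0.14, adjusted p 5.67e-06. In 1 member, Rpl18, every LCK tumour lay above every RERT2 tumour, as in 0.225% of genes tested. Members not called included Rpl3 (0.07 ± 0.14, adjusted p 0.727), Rpl30 (0.01 ± 0.14, adjusted p 0.96), Rpl15 (-0.13 ± 0.11, adjusted p 0.39) and Rpl11 (0.24 ± 0.12, adjusted p 0.112). Of markers, the myeloid markers (4 of the 5 tested higher and 0 lower) summed to 119 to 2165 CPM (median 376) in LCK tumours and 21.8 to 155 CPM (median 58.3) in RERT2 tumours, and the B cell markers (3 of the 3 tested higher and 0 lower) summed to 3.07 to 1258 CPM (median 88.3) in LCK tumours and 0.18 to 31.4 CPM (median 3.87) in RERT2 tumours. Further, the thymocyte markers (0 of the 6 tested higher and 2 lower) summed to 207 to 3226 CPM (median 1197) in LCK tumours and 1678 to 3941 CPM (median 2549) in RERT2 tumours, and the NK and innate T markers (2 of the 3 tested higher and 0 lower) summed to 4.02 to 323 CPM (median 108) in LCK tumours and 0.209 to 37.7 CPM (median 8.04) in RERT2 tumours; their part was not tested. The driver line and MYCChr6 differ together here and cannot be told apart.

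Within LCK MYCChr6 tumours no member passed the test between Cdc20 genotypes. For D/AAA against +/D, 0 members were called by edgeR and by DESeq2, 1 had an unadjusted p under 0.05, and 39 fold changes were positive and 37 negative (median 0.00, all genes 0.02), beside 0.0% of 12791 genes called. Rpl8, the 1 with the low p, had 1244, 2223 and 2929 CPM (lowest, median and highest of 14 libraries) in D/AAA and 1592, 1076, 1864 and 1863 CPM in +/D tumours (0.43 ± 0.20, adjusted p 0.966). The groups overlapped. The other genes of chromosome 15 had a median of 0.37.

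LCK +/D MYCChr6 tumours, set against RERT2 +/D thymus, gave the largest positive median fold change of the 20 comparisons. Of the 76 members 75 were higher and 0 lower, beside 16.4% higher and 15.9% lower of 11530 genes, with a median of 1.28 against -0.02. In 70 members all 4 tumours lay above all 6 thymus libraries, as in 12.2% of genes tested. Rps2 had 824, 552, 845 and 1121 CPM in tumours and 197, 192, 190.1, 106, 211 and 189.8 CPM in thymus (2.19 ± 0.22, adjusted p 1.78e-05). Rpl32 had 1584, 1051, 1658 and 3266 CPM in tumours and 320.4, 365, 364, 453, 562 and 451 CPM in thymus (2.16 ± 0.27, adjusted p 8.62e-05). Neither gene's tumour values reached down to its thymus values. Rpl37 had 1.82 ± 0.24, adjusted p 0.000123, and Rps27 was called at 0.68 ± 0.20, adjusted p 0.0174. Rps13 was the 1 member not called (-0.01 ± 0.51, adjusted p 0.991; 1.08 ± 0.20, adjusted p 0.00127 with near copies summed). Of markers, the thymocyte markers (0 of the 6 tested higher and 4 lower) summed to 1179.6 to 2492 CPM (median 1634) in tumours and 6110.4 to 7255 CPM (median 6575) in thymus. The myeloid markers (3 of the 5 tested higher and 0 lower) summed to 92.4 to 574 CPM (median 300) in tumours and 13.9 to 55.1 CPM (median 32.9) in thymus. The B cell markers (1 of the 4 tested higher and 0 lower) had 4 positive and 0 negative fold changes, with a median of 2.68. Of the 4 NK and innate T markers tested 0 were higher and 1 lower. The part of these markers was not tested. These groups differ in driver line as well as in tumour and MYCChr6, which cannot be told apart.

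RERT2 D/AAA MYCChr6 tumours could be set against RERT2 D/AAA MYCChr6 thymus, 3 libraries each. All 76 fold changes were positive with a median of 0.92 (all genes 0.01), and 28 members were called higher and 0 lower, beside 0.919% higher and 1.25% lower of 11105 genes. In 70 members the tumours lay above the thymus libraries without overlap, as in 14.1% of genes tested. Rpl41 had 3544, 3118 and 2763 CPM in tumours and 855, 988 and 816 CPM in thymus (1.81 ± 0.17, adjusted p 0.00821). Rps2 had 1139, 1031 and 1133 CPM in tumours and 349.7, 300.2 and 326 CPM in thymus (1.74 ± 0.18, adjusted p 0.00881). Both genes separated the groups by more than the spread within either. Rps13 had 2.09 ± 0.24, adjusted p 0.0114 and, with near copies summed, 0.73 ± 0.20, adjusted p 0.107. Leaving out 1 library at a time gave 0 to 18 members called, and leaving out any thymus library gave 0. Of markers, the red cell markers (0 of the 4 tested higher and 0 lower) summed to 23.7 to 103 CPM (median 40.3) in tumours and 170.4 to 59529 CPM (median 6556) in thymus. The thymocyte markers (0 of the 6 tested higher and 1 lower) had 0 positive and 6 negative fold changes, with a median of -1.63. The part of these markers was not tested.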

How the data were processed

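Per the submitters' processing notes, the authors used FastQC, STAR 2.5.3a and RSEM 1.3.0 with GRCm38 (mm10). The deposited values are expected counts per gene, estimated by RSEM according to those notes and already whole numbers, 1 table for each run; the sources used here give neither the counting strand, nor the annotation release, nor how reads shared by near copies were divided. Gene names, positions and types came from GENCODE M21 (GRCm38).

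From the deposited expected counts, edgeR 4.0.16 (R 4.3.3) was fitted for each pair of groups within a run, with filterByExpr, TMM scaling and the robust 2-sided quasi-likelihood test, Benjamini-Hochberg adjusted over all genes tested with a threshold of 0.05. Every adjusted p in the text comes from this test unless DESeq2 1.42.0 is named. A fold change is log2, first group over second, ± SE, where SE is its size over the root of the F statistic. A library with the lowest total, 21199 counts, gives 1 count the weight of many CPM, so its zeros are limits of depth.

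Near copies were gene rows aligned by blastn 2.17.0 at 90% identity or more over 50% of the gene and 150 bases or more. The named genes were, per comparison, up to 3 called members with the largest fold change in each direction and up to 2 called genes of each other list, together with Rpl22, Rpl5, Rpl11, Rpl10, Rpl3, Rpl8, Rpl30, Rpsa, Rps19, Rpl39, Rpl41, Rps27, Rpl22l1 and Rps27l; the heat map holds 73 of the members in every comparison. Some genes are not reported here. Other members named, such as Rps6, Rpl15, Rpl28 in DN4 cells, Rpl7 and Rpl36, were chosen after their values were seen. The members and gene lists were chosen with earlier results of these data known. Alternatives were RLE scaling, TMM without the members, no filter, DESeq2, 1 fit of all libraries of a run, and libraries left out. Groups with 1 or 2 libraries were not tested. The fits were tested on simulated data.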

Additional observations from a re-analysis of the deposited data

Results flagged for a closer look

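Of 41 sets of values examined, each 1 gene or the sum in 1 group of 4 to 10 libraries, 7 values lay far from the rest of their group by Dixon's test, which chance gives in about 1 in 20 groups. DN1 +/D replicate 1 was the lowest of its group in the summed level of the 76 genes, at 23339 CPM, and in Rps27, at 604.6 CPM. DP +/D replicate 3 was the lowest of its group in Rps27, at 308 CPM, and in Rpl22, at 29.9 CPM. DN3 +/D replicate 1 was the highest of its group in Rpl10, at 159 CPM. p53(+/D) tumour 1 was the lowest of its group in Rpl22, at 120.5 CPM, and +/D thymus replicate 4 was the lowest of its group in Rps2, at 106 CPM.

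Tumour groups that entered no comparison also stood above control thymus. The 2 CD4 D/AAA MYCChr6 tumours summed to 70127 and 76554 CPM over the 76 genes and the p53(-/-) tumour to 60966 CPM, against at most 32020 CPM in the 6 +/D thymus libraries.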

How the results depend on the processing

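Over all alternatives run, DP against DN4 kept 75 to 76 members called, RERT2 D/AAA tumours against +/D thymus 73 to 75 and against D/AAA thymus 60 to 67, LCK D/AAA MYCChr6 tumours against RERT2 D/AAA tumours 57 to 68, and LCK +/D MYCChr6 tumours against +/D thymus 73 to 76. Of the counts of members called under other settings, 150 stayed within 1.5 times the count given and 33 moved beyond it.

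With 1 fit of all libraries of a run, the counts were 9 for DN2 against DN1 (17 as reported), 0 for DN3 against DN2 (2), 2 for DP D/AAA against +/D (0), 36 for early DP tumours against DP (0), 1 against DN4 (0), 15 for unsorted early tumours against DN1 (0) and 45 for RERT2 D/AAA MYCChr6 tumours against MYCChr6 thymus (28). With no filter they were 0 for DN3 against DN2, 3 for early DP tumours against DP, 1 against DN4 and 53 for RERT2 D/AAA MYCChr6 tumours against MYCChr6 thymus. With DESeq2 they were 13 for early DP tumours against DP, 1 against DN4, 17 for unsorted early tumours and 8 for p53(+/D) tumours (4). With near copies summed, an alternative chosen after seeing the data, they were 0 for DN3 against DN2, 0 for DN4 against DN3 (1), 1 for early DP tumours against DN4 and 7 for p53(+/D) tumours. Early DP tumours against DP gave 54 with the higher title numbers alone and 55 without DP D/AAA replicates 1 and 5, and unsorted early tumours gave 6 without the library of lowest total. The cause of these moves was not tested.

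Leaving out 1 library at a time gave 0 to 21 members for early DP tumours against DP, 0 to 2 against DN4, 32 to 43 for RERT2 D/AAA MYCChr6 against RERT2 D/AAA tumours and 0 to 18 for RERT2 D/AAA MYCChr6 tumours against MYCChr6 thymus. Rpl5 changed sign with near copies summed, to 0.73 (log2, adjusted p 0.00117) in RERT2 D/AAA MYCChr6 and to 0.57 in LCK D/AAA MYCChr6 against RERT2 D/AAA tumours. No paired analysis was possible because the labels carry no replicate numbers. The replicate numbers used here follow the order of the library titles within a group. The labels do not say whether libraries of different stages came from the same animal, and the tests treated all libraries as independent. The low total of DN1 D/AAA replicate 8 limits what that library can show, and groups of 3 limit the comparisons with RERT2 D/AAA MYCChr6 libraries.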
